A study of Mus musculus with 8 samples.

Results

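The 5 microRNAs (miRNAs) miR-143, miR-145, miR-199a-3p, miR-199a-5p and miR-214 are best known from fibroblasts, smooth muscle cells and pericytes, the contractile and supporting (mural) cells around blood vessels. Here their signal was followed in cultured primary oligodendrocytes of the mouse, which wrap axons with myelin. The members are the array rows that carry exactly these names, with star strands left out. They comprise 5 of the 611 mouse miRNAs on the array, with 10 probes and 100 spots per array. Mature cells were sampled on day 6 (3 arrays) and immature cells on day 0 (3 arrays) and day 1 (2 arrays). All 8 samples were labelled strain C57BL/6J and genotype CNP-Cre, immature cultures included. Such mice carry Cre under the control of Cnp, a gene of the oligodendrocyte lineage. The labels name no treatment, and the groups differ in days of culture. Per the labels' protocols, cells were shaken off a primary culture and plated in defined medium with B27, thyroid hormones and a low share of horse serum. The purity of the cultures and the age of the animals are not given in the sources used here.

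A miRNA is a short RNA that pairs with messenger RNAs, mainly through its seed (bases 2 to 8), and lowers their translation and stability. MiR-143 and miR-145 are cut from 1 shared precursor transcript that is switched on by serum response factor and myocardin in smooth muscle. MiR-199a and miR-214 are cut from Dnm3os, a transcript of mesenchymal cells that the transcription factor Twist1 activates. In brain tissue these miRNAs are regarded as signs of vessel walls and meninges more than of neurons or glia, although some have also been studied in oligodendrocyte precursors.

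The mature sequences show what the probes read, and are given for the 3 members found in RefSeq's miRNA table (build GRCm38.p6). Capitals mark the seed.
mmu-miR-199a-3p: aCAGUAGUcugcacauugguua
mmu-miR-199a-5p: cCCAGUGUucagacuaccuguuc
mmu-miR-214 (miR-214-3p in RefSeq): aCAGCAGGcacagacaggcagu
The 3 have 3 different seeds. The letters of miR-199a-3p stand at 3 places in the genome: in Mir199a-2 (chr1:162217883-162217904, plus strand), in Mir199a-1 (chr9:21496498-21496519, minus strand) and, as miR-199b-3p, in Mir199b (chr2:32318524-32318545, plus strand). The array's annotation names both miRNAs for these probes, so the signal called miR-199a-3p does not separate them. MiR-199a-5p stands in Mir199a-2 (chr1:162217844-162217866) and Mir199a-1 (chr9:21496537-21496559). The seed of miR-214 is shared with 1 other mature mouse miRNA of the table, miR-761.
mmu-miR-761: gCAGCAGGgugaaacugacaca
Probes for miR-761 (chr4:109017669-109017690) were not well above background on any array.

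The next hairpins show how the members are arranged in their precursors, with the measured strands in capitals.
Mir199a-2 hairpin: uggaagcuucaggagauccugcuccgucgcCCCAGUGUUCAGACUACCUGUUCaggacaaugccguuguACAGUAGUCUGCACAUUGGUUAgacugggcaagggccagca
Mir214 hairpin: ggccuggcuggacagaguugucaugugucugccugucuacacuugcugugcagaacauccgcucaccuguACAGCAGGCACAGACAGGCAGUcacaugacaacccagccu
Mir199a-2 (chr1:162217814-162217923) and Mir214 (chr1:162223368-162223477) lie 5444 bases apart, both inside the spans of Dnm3os and of the dynamin gene Dnm3. Mir199a-1 (chr9:21496495-21496564) lies inside Dnm2 and Mir199b (chr2:32318460-32318569) inside Dnm1, which also encode dynamins. The gene table used gives spans without exons, so exon and intron could not be told apart.

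Signals are given after scaling the arrays to each other, on a linear scale that has no unit, from the brighter of each member's 2 probes. Detection on an array required the scanner software to rate a share of 0.5 or more of a probe's spots well above background. Array quality bore on these dim miRNAs. Day 0 replicate 1 had negative control spots with a median absolute deviation of 30.2, against 2.54 to 3.88 on the other arrays. These deviations were put on the scale of an SD and taken before the arrays were scaled to each other. No probe with a scaled signal under 200.4 counted as detected on day 0 replicate 1, against 11.8 to 24.4 on the others. Mouse miRNAs detected there numbered 61, against 150 to 218 elsewhere. Results are therefore also given without it. All arrays lay on 1 slide with 1 scan date.

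**Figure D1:**
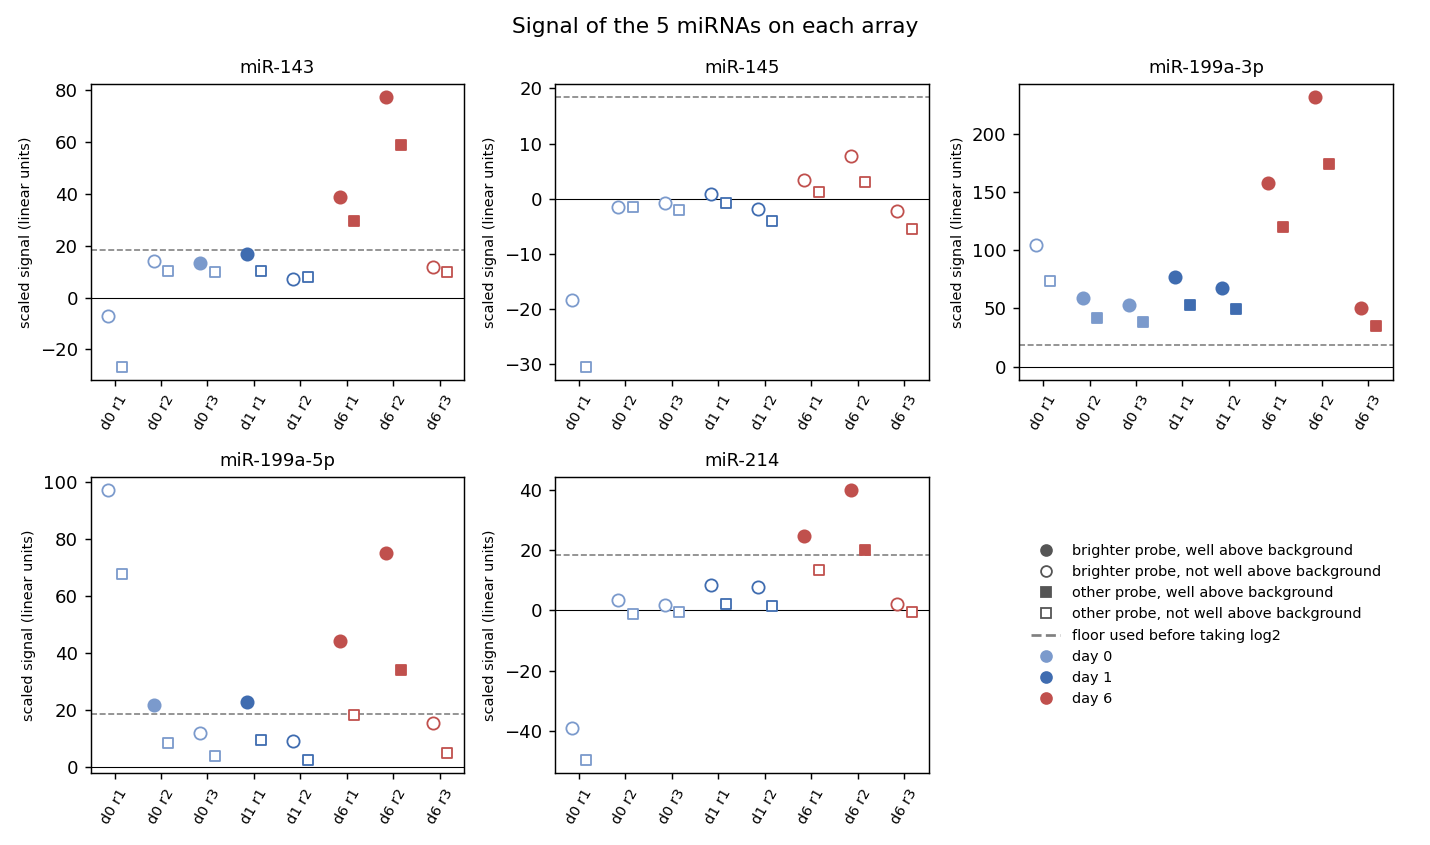
Scaled signal (linear) of the 5 members on each of the 8 arrays (d, day; r, replicate), circles for the brighter and squares for the other probe, filled where well above background. The tallest filled circle of every detected member is day 6 replicate 2, and day 6 replicate 3 lies among the immature arrays or, for miR-199a-3p, just under them.

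MiR-199a-3p, a strand reported to act on mTOR and MET, was the member detected most widely, on 7 of 8 arrays. Its scaled signal was 104.5 (not detected), 59.4 and 52.8 on the day 0 arrays, 76.8 and 67.4 on the day 1 arrays, and 157.6, 231.7 and 50.5 on the day 6 arrays. Day 6 thus held both the highest array and the lowest, and the days overlapped. On day 6 replicate 2 the SD among its 10 spots was 28.8, and on replicate 3 it was 6.40. These SDs hold technical noise within an array and not the spread between cultures. The gap between the 2 arrays was larger before scaling, at 220.2 and 36.5. Its second probe had 173.8 on day 6 replicate 2 and 35.2 on replicate 3, with day 0 and day 1 arrays between 38.5 and 73.4.

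MiR-199a-5p, the other arm of the same hairpins and a strand reported to act on Hif1a, was detected on 4 arrays. Its scaled signal was 97.1 (not detected), 21.6 and 12.0 (not detected) on the day 0 arrays, 22.6 and 9.21 (not detected) on the day 1 arrays, and 44.3, 75.1 and 15.3 (not detected) on day 6. The 97.1 on day 0 replicate 1 came with an SD of 26.5 among 9 spots, none of them well above background. Without this array, day 6 replicates 2 and 1 were the highest and day 6 replicate 3 lay between the immature arrays. The second probe was detected on 1 array, day 6 replicate 2, at 33.9.

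MiR-214, which is reported to act on Ezh2, was detected on 2 arrays, both of day 6. Its scaled signal was 24.8 on day 6 replicate 1, with 6 of 10 spots well above background, and 40.0 on replicate 2, with 10 of 10. The third day 6 array had 2.24 with 0 of 10 spots. None of the immature arrays detected it, with -39.0, 3.44 and 1.96 at day 0 and 8.49 and 7.93 at day 1. The second probe was detected on day 6 replicate 2, at 20.3. No fold between days is given for miR-214 under this detection rule, because it had no measured level on the third day 6 array or on any immature one.

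MiR-143, which is reported to act on hexokinase 2, was detected on 4 arrays. Its scaled signal was -7.22 (not detected), 14.2 (not detected) and 13.2 on the day 0 arrays, 16.6 and 6.99 (not detected) on the day 1 arrays, and 38.8, 77.1 and 11.6 (not detected) on day 6. Day 6 replicates 1 and 2 stood above every immature array, and replicate 3 did not. Both day 6 arrays with signal had 10 of 10 spots well above background, and the second probe was detected on these arrays alone, at 29.6 and 58.7.

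MiR-145, whose gene lies 1301 bases from that of miR-143 inside the span of the long non-coding RNA gene Carmn, and which is reported to act on Klf4 in smooth muscle, was not detected. Its 2 probes were well above background on 0 of 8 arrays, and the highest scaled signal of the brighter probe was 7.73, on day 6 replicate 2, with a spot SD of 3.76. The lowest signal that counted as detected on that array was 19.1, so a level below it could not be seen. The scanner software's own detection flag per miRNA gave 0 arrays for miR-145, 2 for miR-214, 5 each for miR-143 and miR-199a-5p, and 7 for miR-199a-3p.

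Differences between days were tested with limma on log2 signals for the 199 mouse miRNAs detected on at least 3 arrays. MiR-143, miR-199a-3p and miR-199a-5p passed this filter, and miR-145 and miR-214 did not. With the scanner software's more lenient flag (positive and significant) 4 of the 5 passed, miR-214 being detected on 5 arrays, 2 of day 6 and 3 immature, and miR-145 on 1. MiR-214 then had a log2 fold of 1.53 in mature against immature cells (95% interval -0.17 to 3.22, limma adjusted p = 0.703 over 336 miRNAs). Since neither group had it detected on every array, this fold depends on the floor put in for low signals and is not a measured size. In the main fit a floor of 18.4 (4.20 in log2) replaced lower signals. All 5 immature arrays of miR-143 lay at it, 2 of them although detected, because their own detection limits were lower.

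In mature against immature cells, limma called 0 of the 3 tested members (Benjamini-Hochberg adjusted p under 0.05), and the background was 4 of 199 miRNAs, or 2.01%. All 3 members had log2 folds above 0, as did 53.8% of all tested miRNAs, and their median was 0.80 against 0.04 over all 199. MiR-143 had 5.25 ± 1.03 on day 6 (SD, n = 3) against 4.20 on all immature arrays (log2 fold 1.05 ± 0.42 SE, 95% interval 0.06 to 2.03, limma adjusted p = 0.385). That 4.20 is the floor, so this fold could not fall below 0 and its size is not a measured one. MiR-143 was the 1 member with an unadjusted p under 0.05 (0.0406), which 12.1% of all miRNAs had. MiR-199a-3p had 6.94 ± 1.14 on day 6 (SD, n = 3) against 6.13 ± 0.38 on immature arrays (n = 5), with a log2 fold of 0.80 (95% interval -0.38 to 1.98, limma adjusted p = 0.584). MiR-199a-5p had 5.30 ± 1.02 on day 6 (n = 3) against 4.79 ± 1.02 on immature arrays (n = 5), with a log2 fold of 0.59 (95% interval -0.95 to 2.13, limma adjusted p = 0.81). The fit weights day 0 and day 1 equally, so its folds differ a little from the differences of these means. The last 2 intervals include values on both sides of 0. Day 6 overlapped the immature arrays for each of the 3, while 3.52% of tested miRNAs were higher with no overlap. A two-sided exact permutation of the arrays gave p = 0.107 for miR-143, 0.214 for miR-199a-3p and 0.518 for miR-199a-5p, where 56 splits allow no p below 0.0179. For miR-143, 6 of the 8 arrays were tied at the floor. Its values therefore allow no p below the 0.107 found, and the permutation cannot weigh this member further. Bulk RNA cannot tell fewer cells of a type from less RNA per cell.

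Single arrays moved these values. Leaving out day 6 replicate 3 gave log2 folds of 1.63, 1.44 and 1.16 for miR-143, miR-199a-3p and miR-199a-5p, none called (smallest limma adjusted p = 0.0794). In that fit 1 of all 198 tested miRNAs was called. Leaving out day 6 replicate 2 gave 0.57, 0.34 and 0.12. Without day 0 replicate 1 they were 1.14, 1.06 and 1.10.

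**Figure D2:**
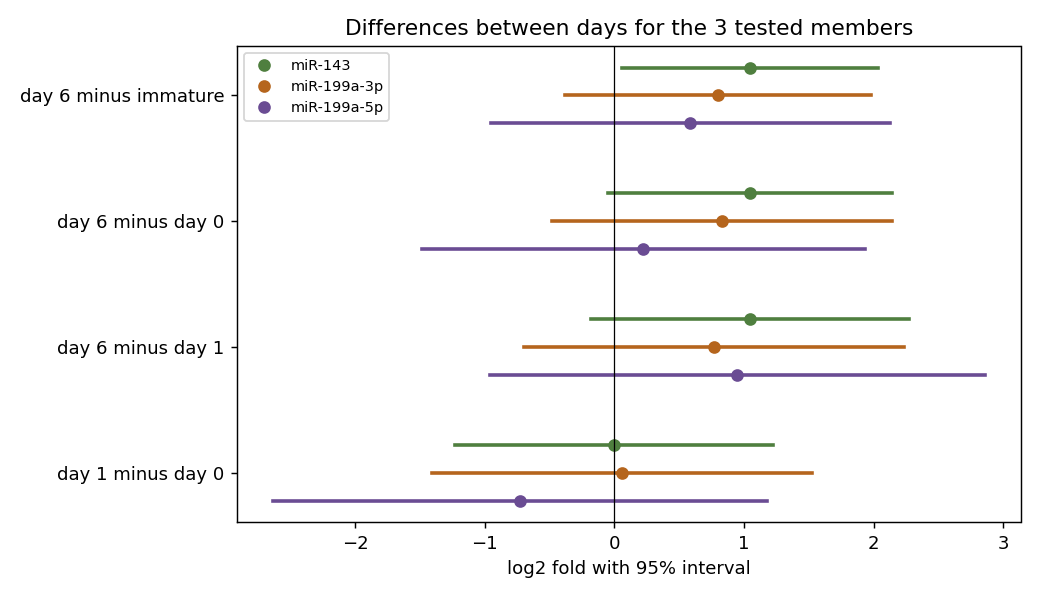
Log2 fold (dot) with its 95% interval (line) for the 3 tested members in the 4 comparisons of days, from limma. The intervals include 0 in 11 of 12 cases, the exception being miR-143 in day 6 against immature cells, from 0.06 to 2.03. All immature arrays of miR-143 lay at the floor, so this interval depends on it, and doubling the floor lowered the log2 fold to 0.38.

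By pairs of days, 0 of the 3 tested members were called in any comparison. Between day 6 and day 0, where limma called 4.02% of all miRNAs, the log2 folds were 1.05 for miR-143 (adjusted p = 0.37), 0.83 for miR-199a-3p (adjusted p = 0.6) and 0.22 for miR-199a-5p (adjusted p = 0.911). At an unadjusted p under 0.05 there were 0 members and 13.1% of all. The small fold of miR-199a-5p rests on the undetected signal of day 0 replicate 1: without that array it was 1.15. Between day 6 and day 1, where 0% were called, they were 1.05, 0.77 and 0.95, with 0 members and 8.04% of all at an unadjusted p under 0.05. Between day 1 and day 0, where 1.51% were called, they were 0, 0.06 and -0.73, again with 0 members and 8.04% of all at an unadjusted p under 0.05. Without day 0 replicate 1 the -0.73 of miR-199a-5p became 0.10. MiR-143 lay at the floor on all arrays of both days.

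The members also differed among the day 6 arrays themselves. This was noticed in the data and is a description of single arrays, not a test. MiR-199a-3p, detected on all 3, was 4.58-fold higher in scaled signal on replicate 2 than on replicate 3 and 3.12-fold higher on replicate 1 than on replicate 3. MiR-143 and miR-199a-5p were not detected on replicate 3, so they were set against the lowest detected signal of that array, 23.5. On replicate 2 miR-143 was then at least 3.28-fold and miR-199a-5p at least 3.19-fold higher than on replicate 3. On replicate 1 the bounds were 1.65-fold for miR-143 and 1.88-fold for miR-199a-5p. By this rule, which was chosen after the data were seen, 3 of 3 members were detected and at least 2-fold higher on replicate 2 than on replicate 3, as were 4.52% of the 199 miRNAs. For replicate 1 over replicate 3 it was 1 of 3, against 3.02% of all. For replicate 2 over replicate 1 it was 0 of 3, against 2.01%, with folds of 1.99 for miR-143, 1.47 for miR-199a-3p and 1.69 for miR-199a-5p.

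**Figure D3:**
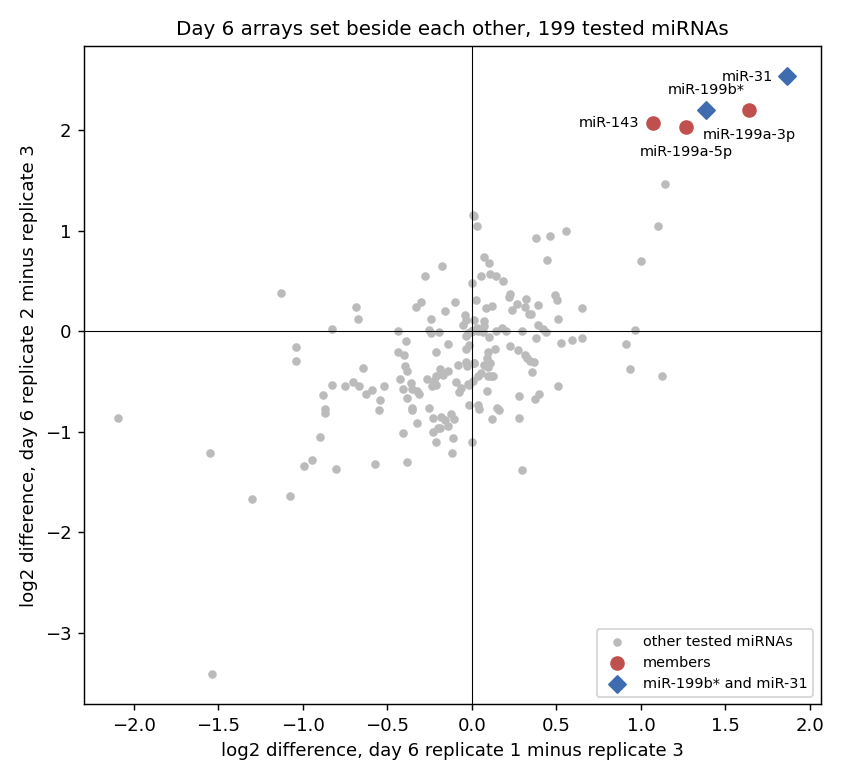
Log2 difference of day 6 replicate 1 (horizontal) and replicate 2 (vertical) from replicate 3, for each of 199 tested miRNAs, on log2 signals with the floor. The 3 members, miR-199b* and miR-31 lie in the upper right corner, with vertical values from 2.03 to 2.54. All of these but miR-199a-3p were undetected on replicate 3, so their places depend on the floor.

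The log2 signals of the tested members were compared over all arrays. Pearson's r between miR-143 and miR-199a-3p was 0.90 over 8 arrays, between the 2 arms of miR-199a 0.82, and between miR-143 and miR-199a-5p 0.58. Without day 0 replicate 1 they were 0.96, 0.98 and 0.99. These values describe arrays that share a slide and a scaling, and for miR-143 they rest on day 6 replicates 1 and 2, the 2 arrays on which it lay above the floor.

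Among the 196 other tested miRNAs, the pattern most like the mean of the tested members was that of miR-199b* (r = 0.90 over 8 arrays), the arm opposite miR-199b-3p in the Mir199b hairpin. It was followed by miR-31 (0.86), miR-29a (0.85) and miR-222 (0.82). Without day 0 replicate 1, where miR-199b* and the members were not detected, miR-31 came first (r = 0.99 over 7 arrays) and miR-199b* second (0.94). MiR-31 was also the miRNA most like miR-143 (0.97) and most like miR-199a-3p (0.91) over all 8 arrays, and it led for both without day 0 replicate 1 too (0.97 and 0.99). MiR-31 had scaled signals of 67.1, 107.1 and 12.2 on the day 6 arrays, while those of immature cells lay between -45.1 and 26.1. Its likeness to the members rests on day 6 replicates 1 and 2. Over the 6 arrays without these, its r was 0.26 with miR-199a-3p and 0.007 with the mean of the tested members. With miR-143 it could not be computed, as miR-143 lay at the floor on all 6. MiR-199b* had an r of 0.95 with the mean over the same 6 arrays, which include day 0 replicate 1. For miR-199a-5p, miR-199b* (0.97) and miR-21 (0.95) came first over 8 arrays, and miR-31 (0.99) and miR-199b* (0.96) over 7.

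MiR-199b* needs care as a separate signal, because the Mir199b hairpin holds a stretch (chr2:32318485-32318507) that equals miR-199a-5p at 22 of 23 bases. Its 1 difference, in capitals, is C10U, counted from the 5′ end of miR-199a-5p. Whether the probes of one also read the other was not tested.
Mir199b stretch: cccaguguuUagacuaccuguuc
The scaled signal of miR-199b* was 83.0 (not detected), 32.6 and 21.6 on the day 0 arrays, 29.7 and 13.5 (not detected) on the day 1 arrays, and 48.2, 84.5 and 18.3 (not detected) on day 6. As for miR-199a-5p, replicate 2 was the highest detected array and replicate 3 lay among the immature ones (day 6 against immature, log2 fold 0.48 ± 0.60 SE, limma adjusted p = 0.842).

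Other miRNAs linked to fibroblasts and mural cells were listed as companions. Of 14 listed, 12 had probes of their own, 6 of these were detected on no array (miR-145*, miR-214*, miR-10a, miR-10b, miR-196a and miR-196b), and 6 were tested. The scanner software's own flag per miRNA differed for miR-10a, which it gave 2 arrays. In day 6 against immature cells 0 of the 6 tested companions were called, against 2.01% of all 199 tested miRNAs. All 6 folds were above 0, as were 53.8% of all, and their median was 0.22 against 0.04. Against day 0 alone, 4 of the 6 were above 0, with a median of 0.06. MiR-22 had the highest, 0.64 (adjusted p = 0.471), then miR-199b*, miR-152 with 0.24, miR-140 with 0.20, and miR-140* and miR-21 with 0.09 each. MiR-21, a miRNA of activated fibroblasts and of glia, had 9819, 14290 and 7541 on day 6, replicate 2 again the highest of that day. MiR-140, a miRNA of cartilage, did not share this order, with 121.9, 92.0 and 114.1.

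Markers of other cell types were set beside the members. Both endothelial miRNAs (miR-126-3p and miR-126-5p) were detected on 0 arrays, with summed signals of 2.33 to 4.04 on day 6, against 0 to 7.28 on immature arrays. The 4 muscle miRNAs (miR-1, miR-133a, miR-133b and miR-206) and the 3 erythroid ones (miR-451, miR-144 and miR-486) were also detected on 0 arrays. The summed signal of 6 microglia and leukocyte miRNAs was 1988, 2067 and 1245 on day 6, against 1415 to 2678 on immature arrays. Like the members' sum, it was highest on replicate 2 and lowest on replicate 3. Within the list, miR-223, miR-142-3p and miR-155 were highest on replicate 2, but miR-146a and miR-142-5p on replicate 1. All but miR-150 were detected on some array. The 4 astrocyte miRNAs summed to 2286, 2685 and 2390 on day 6, also highest on replicate 2, against 1827 to 2773 on immature arrays. The 4 oligodendrocyte miRNAs (miR-219, miR-338-3p, miR-338-5p and miR-138) summed to 2610, 874.2 and 2236 on day 6, where replicate 2 was the lowest, against 148.4 to 3468 on immature arrays. Day 0 replicate 1 had 0 of these 4 detected, but no signal under 200.4 counted as detected there. Its count thus does not measure how much of these miRNAs it held. Of the other immature arrays, day 1 replicate 2 had 1 detected and a sum of 243.4. Day 0 replicate 3 had 3 detected and a sum of 494.5. The 7 neuronal miRNAs summed to 791.5, 453.8 and 1657 on day 6, where replicate 3 was the highest, against 639.6 to 782.4 on immature arrays. The part of these other cell types in the members' signal was not tested. In day 6 against immature cells, limma called 0 miRNAs of each of these lists. The median log2 folds were 0.85 for 4 tested oligodendrocyte miRNAs, 0.12 for 5 of microglia and leukocytes, 0.21 for 6 of neurons and 0.30 for 4 of astrocytes, against 0.04 over all 199. The 2 with the smallest p were miR-338-3p (1.32) and miR-138 (0.91) in oligodendrocytes, miR-146a (0.59) and miR-223 (-0.47) in microglia, miR-132 (-0.34) and miR-212 (0.21) in neurons, and miR-26a (-0.42) and miR-29b (0.72) in astrocytes. Of 6 miRNAs of epithelium and choroid plexus 5 were detected on 0 arrays, and the 1 tested, miR-204, had -1.50.

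**Figure D4:**
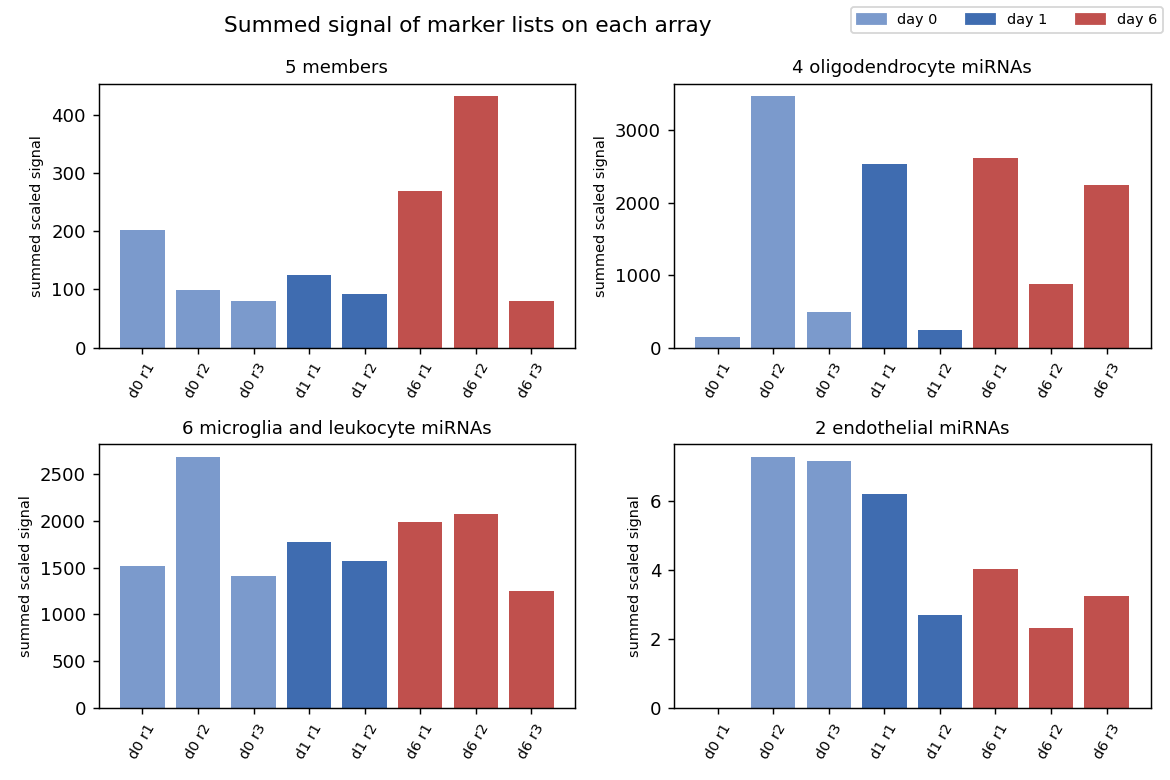
Summed scaled signal (linear, values below 0 counted as 0) of the members and of 3 marker lists on each array, coloured by day. On day 6 the members sum to 268.9, 431.6 and 79.7 and the microglia list to 1988, 2067 and 1245, while the endothelial sums stay at or under 7.28 on all arrays.

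The 2 day 6 arrays with the higher member signals lay in 1 row of the slide and replicate 3 in the other, and both rows also held immature arrays. With the row as a block, an alternative chosen after the data were seen, the log2 folds in mature against immature cells were 0.90 for miR-143, 0.67 for miR-199a-3p and 0.55 for miR-199a-5p, none called (smallest limma adjusted p = 0.579). This block left 0 of all 199 miRNAs called. A fit with a difference for each row was also chosen after the data were seen. It left a lone day 6 array in 1 row, so its differences are given without calls or p-values. In the row that held day 6 replicates 1 and 2 and 2 immature arrays, day 6 minus immature was 1.57 in log2 for miR-143. It was 1.60 for miR-199a-3p and 1.53 for miR-199a-5p. The other row held day 6 replicate 3 and 3 immature arrays. There the differences were 0, -0.57 and -0.90, and without day 0 replicate 1 they were 0, -0.33 and -0.15. Day 6 was thus not above the immature arrays in that row. The difference between the rows rests on that lone day 6 array, which has no spread of its own. Row and replicate cannot be told apart within day 6.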

How the data were processed

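Total RNA was labelled with Cy3 and hybridised to 1-colour Agilent miRNA arrays, 1 sample per array. Per the file headers, Feature Extraction 9.5 (a name also in the submitters' processing notes) made the deposited background-subtracted intensities, which are linear, can fall below 0 and were not scaled between arrays. The authors' value table held the same intensities (largest difference 0), so its scale and direction are known and it is not centred. Outlier spots were left out and spots averaged per probe. Arrays were put on a common level through the 75th percentile of the 91 probes that every array detected. Signals were floored at the 5th percentile of detected signals (18.4) and taken to log2. The brighter probe stood for a miRNA. No spot was saturated.

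Of 611 mouse miRNAs, the 199 detected on at least 3 arrays were fitted with limma 3.58 in R 4.3, with 1 mean per day over all 8 arrays, with two-sided tests and Benjamini-Hochberg adjustment over all 199. Tables were read with data.table (version 1.17), and plotting used matplotlib 3.10 under Python 3.11. The code was tested on simulated data. The members and lists were chosen with earlier results of these data known. Named were the 5 members, the measured companions, the 4 miRNAs most like each tested member and their mean (a selection is given), and the 2 smallest p of each other list. The series text calls the samples independent, but neither it nor the labels tie arrays to animals, so p-values measure the spread between these arrays, whose number limits the precision. Matures of 3 of the 5 members matched RefSeq by name. Alternatives are listed at the end.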

Additional observations from a re-analysis of the deposited data

Results flagged for a closer look

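MiR-199a-5p on day 0 replicate 1 stood apart from the other immature arrays, with a log2 signal of 6.60 against 4.20 to 4.50 on the other 4. The gap to the nearest was a share of 0.877 of the whole range, above the critical value of 0.71 for 5 arrays. Chance exceeds that value in about 1 of 20 groups when values share 1 spread and have no floor. That rate does not hold here, since day 0 replicate 3 and day 1 replicate 2 lay at the floor. Day 0 replicate 1 was the array with the wide negative controls, and none of the 9 spots kept there was well above background. Its part in the value was not tested further.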

How the results depend on the processing

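Over 25 other settings per member and comparison, limma called 0 members in each. The authors' value table, 1 of these settings, held the same intensities as the main one and could not differ. Of all 199 miRNAs, day 6 against immature cells gave 0 calls without scaling or with the replicate block, and at most 10, with array weights. Where no miRNA at all was called, the 0 says nothing particular to the members. In mature against immature cells all folds stayed above 0, from 0.38 to 1.82 for miR-143, 0.34 to 1.44 for miR-199a-3p and 0.12 to 1.16 for miR-199a-5p. For miR-143 the fold could not fall below 0 in settings where all its immature arrays lay at the floor, the lowest value possible. Doubling the floor gave the 0.38 of miR-143, since its immature arrays have no measured order below the floor. Signs reversed in small differences, and the cause was not tested. For miR-199a-3p, day 1 against day 0 (0.06) became -0.21 without scaling, -0.35 with the replicate block, -0.018 when control probes set the scale and -0.027 when the slide row was a block, and ranged from -0.13 to 0.42 when single arrays were left out. For miR-199a-5p, the same comparison (-0.73) ranged from -1.06 to 0.10, the 0.10 without day 0 replicate 1, and day 6 against day 0 (0.22) became -0.035 with a doubled floor and -0.054 with the mean of all probes, and ranged from -0.25 to 1.15. The count of members detected on at least 3 arrays was 3, and 4 with the more lenient flag. No member was detected on all 8 arrays, so that filter left none to test. The slide could not act as a block, as there was 1. Deviations of same-numbered arrays from their day's mean correlated at -0.073, -0.39 and 0.32 between day 6 and day 0. Between day 6 and day 1 they correlated at 0.16 and 0.25, and between day 1 and day 0 at -0.38 and -0.71. So few arrays cannot decide whether the numbers pair them, and the labels do not say. The replicate block gave 1.18, 1.01 and 0.83 in mature against immature cells and moved no call.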
